A study of Rattus norvegicus with 24 samples.

Results

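The transcripts of 9 regulators of intrinsic apoptosis, the cell death route that runs through the mitochondria, were followed in silenced and untreated muscle of aged rats. They were picked by gene symbol as Casp9, Apaf1, Bax, Bak1, Bid, Bcl2, Bcl2l1, Mcl1 and Xiap, and 9 of 9 were found among the 13458 symbols of the table. Bcl2l1 had 4 rows, of which the one with the highest mean was taken (89.8% of the symbol's summed CPM). The other members had 1 row each. How reads were shared among the 4 overlapping Bcl2l1 rows is not given in the sources used here, so the level of its single row is uncertain to that extent.

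The muscle was the tibialis anterior (TA) of 12 male Fischer (F344) rats aged 23 ± 1 months. In 9 rats, an implanted osmotic pump fed tetrodotoxin (TTX), which stops nerve impulses by blocking voltage-gated sodium channels, to the left common peroneal nerve. The left TA was sampled at the end of 6 to 7 days of TTX (atrophy, n = 3), after TTX and then 9 days without it (recovery, n = 3), or after a second TTX period of 5 to 6 days that followed both (repeated atrophy, n = 3). The 9 right limbs of the same rats received no TTX and formed the control group, and 3 sham rats, 1 for each sampling time, had the surgery without TTX and gave a left and a right limb each. All 24 limbs therefore came from old males that had been operated on, control limbs included. The nerve was silenced and not cut, and each rat kept its other limb in use. Values are CPM, read counts scaled so that each limb sums to 1000000.

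Intrinsic apoptosis is set by the BCL2 protein family at the outer mitochondrial membrane. BAX and BAK form pores there, BID and other BH3-only proteins trigger them, and BCL2, BCL-XL (from Bcl2l1) and MCL1 hold them back. Cytochrome c released through the pores makes APAF1 assemble with procaspase-9 into the apoptosome, and XIAP binds and blocks the active caspases. In skeletal muscle, whose fibres hold many nuclei, these proteins are studied for the loss of nuclei and of fibre mass during disuse and denervation. Much of the control acts on the proteins, which RNA does not show.

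The inferred depth was about 18900000 to 30900000 reads per limb (median 26100000), so that 1 read was worth 0.032 to 0.053 CPM. A panel of 10 skeletal muscle fibre genes (Acta1, Ckm, Myh4 and others) held 20.7% to 27.8% of all CPM in control limbs, so the muscle label fits its defining genes. The share was 9.32%, 21.97% and 10.99% in atrophy limbs 1 to 3, 20.6% to 22.5% in the recovery limbs, 12.5% to 15.9% after repeated atrophy and 16.9% to 25.1% in sham limbs. Atrophy limb 2 thus lay within the control range. The median log2 fold change over all 14031 rows tested was 0.22 for atrophy, 0.02 for recovery and 0.20 for repeated atrophy. Rescaling each limb by a trimmed mean of log ratios brought these medians to between -0.01 and 0.01, and results are also given on that scale, called rescaled below. In such bulk samples, fewer cells of a type and less RNA per cell cannot be told apart.

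Levels of different genes were compared per kilobase of exon in the control limbs. Mcl1 stood first at 66.8 ± 24.6 CPM per kilobase (SD, n = 9), above Bax in 9 of 9 limbs. Bax (9.81 ± 4.12), Bcl2l1 (8.23 ± 3.14) and Bak1 (6.51 ± 1.21) followed closely, with Bax above Bcl2l1 in 6 of 9 limbs and Bcl2l1 above Bak1 in 5 of 9. The order of these 3 was therefore within their spread. Bid had 4.02 ± 4.52, a mean drawn up by 1 limb (median 2.65), and exceeded Casp9 (2.29 ± 0.58) in 6 of 9 limbs. Below them, Apaf1 had 0.86 ± 0.23, Xiap 0.35 ± 0.12 and Bcl2 0.11 ± 0.10. Casp9 was above Apaf1 and Apaf1 above Xiap in 9 of 9 limbs, and Xiap above Bcl2 in 7 of 9.

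RefSeq promoters (build GRCr8, whereas the table uses rn7) were found for 7 of the 9 members, Bax and Xiap being without an entry. The 250 bases before the start are shown for Casp9 and Bak1, members that passed the test against control, and for Bcl2, the member with the fewest reads. Capitals mark GGGCGG, the GC box bound by SP1-type factors, searched on both strands together with GTAAACA (a FoxO core) and CACGTG (an E-box).
Casp9, chr5:159391824-159392073, plus strand: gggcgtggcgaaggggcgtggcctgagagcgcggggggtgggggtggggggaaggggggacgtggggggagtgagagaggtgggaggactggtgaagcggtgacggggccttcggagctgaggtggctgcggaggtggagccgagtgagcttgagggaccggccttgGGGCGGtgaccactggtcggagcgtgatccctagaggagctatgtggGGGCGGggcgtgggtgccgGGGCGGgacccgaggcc
Bak1, chr20:5110975-5111224, minus strand: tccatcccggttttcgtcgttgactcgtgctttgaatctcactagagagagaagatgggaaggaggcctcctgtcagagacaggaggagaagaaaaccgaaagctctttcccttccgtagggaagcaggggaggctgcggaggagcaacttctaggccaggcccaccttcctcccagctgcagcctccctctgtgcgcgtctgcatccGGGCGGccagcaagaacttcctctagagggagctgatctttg
Bcl2, chr13:23366901-23367150, minus strand: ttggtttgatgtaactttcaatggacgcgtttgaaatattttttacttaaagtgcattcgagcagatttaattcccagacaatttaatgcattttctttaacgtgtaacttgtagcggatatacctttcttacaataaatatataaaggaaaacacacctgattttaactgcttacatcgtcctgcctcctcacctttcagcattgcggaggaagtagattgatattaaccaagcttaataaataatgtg
GGGCGG occurs 3 times in the Casp9 window, once in that of Bak1 and not in that of Bcl2, and it lies in 30.5% of all 33469 windows of this length. Among members not called against control and not shown, the count was 3 for Bid, 2 for Apaf1, 1 for Mcl1 and 0 in each of the 4 Bcl2l1 windows. GC content is 73.2% for Casp9, 57.6% for Bak1 and 33.6% for Bcl2, against a median of 51.2% over all windows. GTAAACA (3.21% of windows) and CACGTG (5.59%) were in none of the windows of the 7 members. Such matches describe letters only.

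Against the control limbs, few members passed the test. A member was called when its fold change was at least 1.2 and its Benjamini-Hochberg adjusted p, from limma over all rows, at most 0.05. After atrophy 2 of 9 members were called, Bax and Bak1, both higher, where 22.6% of all rows were called (20.3% higher). After recovery 0 of 9 were called, against 7.73% of all rows, and 0 had an unadjusted p under 0.05, against 25.1% of all rows. After repeated atrophy 3 of 9 were called, Casp9, Bax and Bak1, all higher, beside 34.3% of all rows (28.1% higher). These counts of calls are near the share of all rows. An unadjusted p under 0.05 was found for 6 of 9 members after atrophy, beside 37.1% of all rows, and for 4 of 9 after repeated atrophy, beside 43.3%. The median log2 fold change of the members was 0.67 for atrophy, -0.12 for recovery and 0.54 for repeated atrophy. On the rescaled values these medians were 0.32, -0.14 and 0.18.

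**Figure D1:**
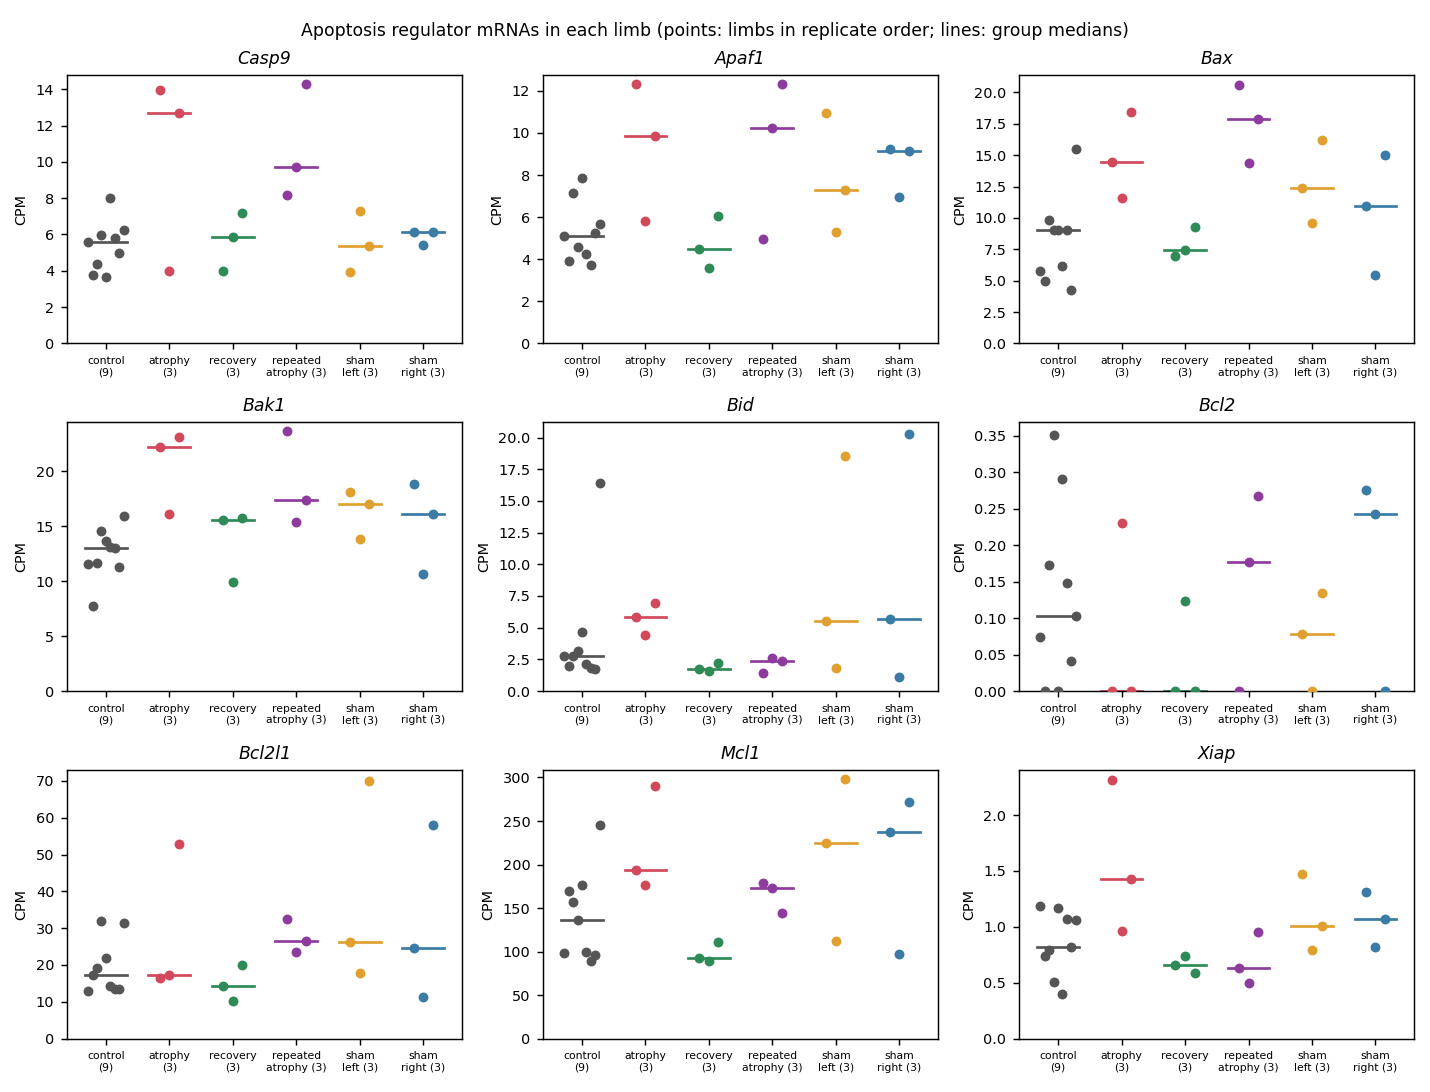
CPM of each of the 9 members (vertical axes, linear from 0) in every limb, by group, with points in replicate order and lines at group medians. In the repeated atrophy group, the 3 Casp9 points (8.16 to 14.3 CPM) lie above the 9 control points (3.66 to 8.02), whereas Bid, Bcl2l1 and Mcl1 spread widely within control and sham.

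Casp9 encodes the initiator caspase of the apoptosome (chromosome 5, 154109055 to 154126623, rn7, plus strand). Its level in the control limbs ran from 3.66 to 8.02 CPM (median 5.61). It was 13.9, 4.00 and 12.7 CPM in the atrophy limbs, 4.00, 5.85 and 7.20 in the recovery limbs, and 8.16, 9.72 and 14.3 after repeated atrophy. The repeated atrophy limbs lay above all control limbs, though the lowest of them narrowly, and 16.8% of all rows showed such a separation upwards. The log2 fold change after repeated atrophy was 0.87 (SE 0.29, adjusted p = 0.027). Under the animal block it was 1.02 (adjusted p = 0.027), the left limb being higher in 3 of 3 rats by 0.94, 1.00 and 1.13 on the log2 scale. On the rescaled values it was 0.54 (adjusted p = 0.15), and the call was also lost without repeated atrophy rat 2 (0.89, adjusted p = 0.098) or 3 (0.69, adjusted p = 0.17). A fit without a rat leaves out both of its limbs, the right control limb included. After the first TTX period, limbs 1 and 3 were above all controls and limb 2 was among the lowest (log2 fold change 0.69, SE 0.29, adjusted p = 0.094). Over the 9 fits that each left out 1 rat it ran from 0.41 to 1.14 (adjusted p = 0.0033 to 0.52). Only the fit without atrophy rat 2 was called (1.14, adjusted p = 0.0033). The left limb of that rat was also the one with a fibre gene share in the control range, and the part of this share in the result was not tested.

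Apaf1, the scaffold of the apoptosome (chromosome 7, 25494596 to 25579541), did not pass in any comparison. Its level was 3.72 to 7.85 CPM in control (median 5.09), 12.3, 5.84 and 9.86 in the atrophy limbs and 4.94, 10.3 and 12.3 after repeated atrophy. In both TTX groups, 2 of 3 limbs exceeded every control limb and the other did not. The log2 fold changes were 0.70 (SE 0.27, adjusted p = 0.064) and 0.65 (SE 0.27, adjusted p = 0.067). Leaving out atrophy rat 2 brought the former to 1.04 (adjusted p = 0.010), and leaving out repeated atrophy rat 1 brought the latter to 0.95 (adjusted p = 0.016). Over the 9 fits that each left out 1 rat, the former went as low as 0.49 (adjusted p up to 0.40). The latter went as low as 0.40 (adjusted p up to 0.39) and was also called without atrophy rat 2 (0.71, adjusted p = 0.028). In the sham rats, the untreated right limbs had 9.26, 6.97 and 9.13 CPM, above 2 of the 6 TTX limbs and below the other 4.

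Of the pore formers, Bax (chromosome 1, 95940001 to 95945409) was called higher in both TTX groups. Control limbs held 4.25 to 15.5 CPM (median 9.03). The atrophy limbs held 14.4, 11.6 and 18.4 CPM, the recovery limbs 6.93, 7.41 and 9.24, and the repeated atrophy limbs 20.6, 14.4 and 17.9. The TTX limbs lay above 8 of the 9 control limbs, the exception being control limb 9 (the right limb of atrophy rat 3) with 15.5 CPM. Bax was higher after repeated atrophy by a log2 fold change of 1.09 (SE 0.27, adjusted p = 0.0053). This call held on the rescaled values (0.74, adjusted p = 0.031), under the animal block (1.09, adjusted p = 0.031) and with each rat left out in turn (0.91 to 1.26), but not with rescaling and block together (0.74, adjusted p = 0.11). After the first TTX period Bax was higher by 0.85 (SE 0.27, adjusted p = 0.034), a call lost on the rescaled values (0.51, adjusted p = 0.19), under the block (0.58, adjusted p = 0.34) and in 5 of the 9 fits that left out 1 rat. Those were the fits without atrophy rat 1 or 3 or any 1 of the 3 recovery rats (0.76 to 0.87, adjusted p = 0.052 to 0.20). In the sham rats Bax was also higher in the left limb of 3 of 3 rats, with 12.3, 9.61 and 16.2 CPM against 10.98, 5.42 and 14.99 (mean log2 difference 0.33, SD 0.34).

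Bak1, the other pore former (chromosome 20, 5100481 to 5109124), moved less. It had 7.77 to 15.9 CPM in control (median 13.0), 22.2, 16.1 and 23.1 after atrophy, 15.5, 9.95 and 15.7 in the recovery limbs and 23.7, 15.4 and 17.3 after repeated atrophy. The atrophy limbs were above all control limbs, the lowest of them by a narrow margin, a separation seen upwards in 4.82% of all rows. Bak1 was higher after atrophy by a log2 fold change of 0.67 (SE 0.20, adjusted p = 0.024), and after repeated atrophy by 0.55 (SE 0.20, adjusted p = 0.040). Both calls were lost on the rescaled values (0.32, adjusted p = 0.29 and 0.20, adjusted p = 0.48) and under the block (0.54, adjusted p = 0.30 and 0.70, adjusted p = 0.078). The former was lost without atrophy rat 1 (0.60, adjusted p = 0.20) or 3 (0.62, adjusted p = 0.081). The latter was lost without any 1 of the 3 repeated atrophy rats, atrophy rat 1, or recovery rat 1 or 3 (0.31 to 0.67, adjusted p = 0.058 to 0.26). The left limb was the higher one in 3 of 3 rats of either TTX group and in 2 of 3 recovery and 2 of 3 sham rats.

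**Figure D2:**
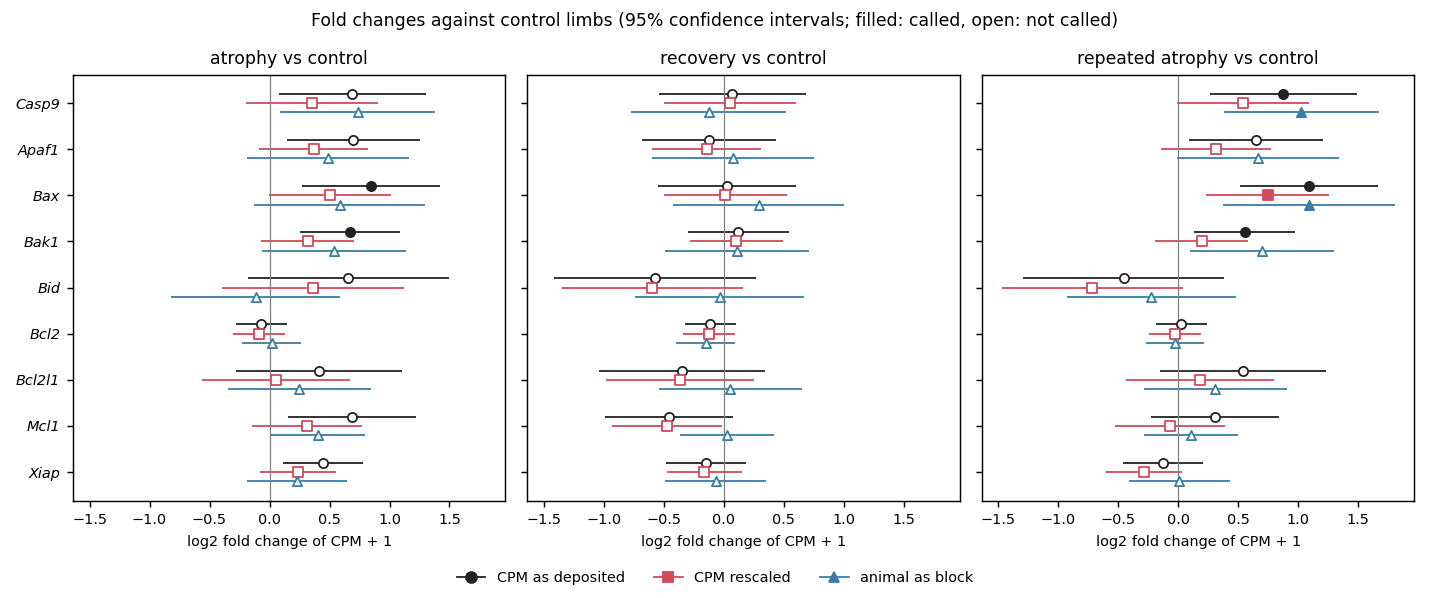
Log2 fold change of CPM + 1 against control for each member (horizontal axis) with 95% confidence intervals, from the deposited CPM (circles), the rescaled CPM (squares) and the fit with the animal as block (triangles). Filled symbols mark members called. Bax after repeated atrophy is filled on all 3, and no symbol is filled after recovery.

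Bid, which links death receptors to the mitochondria once it is cleaved (chromosome 4, 154114211 to 154136154), varied widely between rats. Control limbs other than limb 9 held 1.76 to 4.67 CPM, and limb 9 held 16.4. The atrophy limbs had 5.81, 4.42 and 6.96 CPM and the repeated atrophy limbs 1.42, 2.59 and 2.33, groups that did not overlap. Their difference was -1.11 on the log2 scale (SE 0.49, adjusted p = 0.73), and with the animal as a block it was -0.11. The right limbs of the same rats also differed, with 2.78, 4.67 and 16.4 CPM in the atrophy rats and 1.98, 2.74 and 3.16 in the repeated atrophy rats. In the sham rats Bid reached 5.55 and 5.64 CPM in the left and right limbs of rat 1, 1.81 and 1.11 in rat 2, and 18.6 and 20.3 in rat 3.

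Among the protectors, Bcl2 itself (chromosome 13, 22689783 to 22852239) was close to the detection limit. It was at 0 in 9 of 24 limbs and held at most 9 inferred reads (0.351 CPM) in any limb. A count of 0 allows up to 3 reads, which is 0.16 CPM or less depending on the limb, for counting error only. No difference between groups was detectable at this depth (log2 fold changes of -0.07, -0.11 and 0.02 after atrophy, recovery and repeated atrophy). Fitted values on this scale say little about so low a gene.

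Bcl2l1, the gene of BCL-XL (chromosome 3, 141253508 to 141304510), had 13.0 to 31.8 CPM in control (median 17.2). It had 16.5, 17.4 and 52.9 CPM after atrophy, 14.2, 10.3 and 19.8 in the recovery limbs and 32.4, 23.5 and 26.6 after repeated atrophy. All groups overlapped with control, and the log2 fold changes were 0.41 (95% interval -0.28 to 1.10), -0.35 (-1.04 to 0.34) and 0.54 (-0.15 to 1.23). These intervals leave room for rises of more than 2-fold after TTX as well as for none. Sham rat 3 had 70.1 and 58.2 CPM in its left and right limbs, the highest values in the series for this gene.

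Mcl1, whose short-lived protein guards BAK in particular (chromosome 2, 183219220 to 183222307), was the most abundant member throughout. It had 89.3 to 246 CPM in control (median 136), 194, 177 and 291 after atrophy, 92.0, 88.6 and 111 in the recovery limbs and 179, 173 and 145 after repeated atrophy. It did not pass against control in any group (0.69, adjusted p = 0.059, -0.46, adjusted p = 0.28, and 0.30, adjusted p = 0.40). Without atrophy rat 2 the first of these was 0.88 (adjusted p = 0.032). Over the 9 fits that each left out 1 rat it went as low as 0.58 (adjusted p up to 0.21). Recovery limbs did not overlap with atrophy limbs and were lower by 1.14 on the log2 scale (SE 0.31, adjusted p = 0.020). The untreated right limbs showed a like order, with 98.4, 176 and 246 CPM in the atrophy rats, 99.5, 89.3 and 96.5 in the recovery rats and 169, 156 and 136 in the repeated atrophy rats. Under the animal block, the difference between recovery and atrophy was -0.38 (adjusted p = 0.72), and it was -0.79 (adjusted p = 0.063) on the rescaled values. The call was also lost without recovery rat 1 (-1.11, adjusted p = 0.076) or 2 (-1.08, adjusted p = 0.078). Within the repeated atrophy rats, left exceeded right by only 0.08, 0.14 and 0.09, and within the recovery rats the differences were -0.11, -0.01 and 0.20.

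Xiap, an inhibitor of caspase-9 and other caspases (chromosome X, 120897937 to 120934219), was read at low depth, with 11 to 68 inferred reads per limb. Control limbs had 0.40 to 1.19 CPM (median 0.82), atrophy limbs 2.31, 0.96 and 1.43, recovery limbs 0.66, 0.74 and 0.58 and repeated atrophy limbs 0.63, 0.50 and 0.95. It did not pass against control, the nearest being atrophy at 0.45 (SE 0.16, adjusted p = 0.051). Without atrophy rat 2 this was 0.65 (adjusted p = 0.0087). Over the 9 fits that each left out 1 rat it went as low as 0.28 (adjusted p up to 0.36). Recovery was lower than atrophy without overlap, by 0.60 (SE 0.20, adjusted p = 0.043). This call was lost on the rescaled values (-0.40, adjusted p = 0.16), under the block (-0.30, adjusted p = 0.80) and without any 1 rat of the 2 groups other than atrophy rat 2 (adjusted p = 0.094 to 0.19). Repeated atrophy was also below atrophy without overlap (-0.58, SE 0.20), with an unadjusted p of 0.0086 and an adjusted p of 0.52, and the nearest limbs were at 0.954 and 0.961 CPM. Under the animal block the difference was -0.22 (adjusted p = 0.86). The untreated right limbs separated in the same order, with 1.19, 1.17 and 1.07 CPM in the atrophy rats and 0.74, 0.80 and 0.51 in the repeated atrophy rats.

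Differences between the treated groups followed the same lines. Recovery was called lower than atrophy for 2 of 9 members, Mcl1 and Xiap, beside 17.9% of all rows (14.5% lower), and 6 of 9 had an unadjusted p under 0.05, beside 33.8% of all rows. The recovery limbs lay below the atrophy limbs without overlap for 5 of 9 members and for 28.1% of all rows. Repeated atrophy was called higher than recovery for 1 of 9 members, Bax (1.07, SE 0.34, adjusted p = 0.026), beside 27.2% of all rows (21% higher), and 5 of 9 had an unadjusted p under 0.05, beside 39.9%. That call was lost on the rescaled values (0.73, adjusted p = 0.086), under the block (0.80, adjusted p = 0.36) and without repeated atrophy rat 1 or 3 or recovery rat 1 or 2 (0.95 to 1.05, adjusted p = 0.066 to 0.095). Between repeated and first atrophy 0 of 9 members were called, and 0.0356% of all rows were called. An unadjusted p under 0.05 was found for 2 of 9 (Bid and Xiap) and for 6.30% of all rows. These 2 members were also those whose repeated atrophy limbs lay below the atrophy limbs without overlap, as 4.44% of all rows did. These comparisons share limbs with one another and with those against control.

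The sham rats give the background of the operation and of the rats themselves. Sham left against control called 0 of 9 members and 0 of 13822 rows (1904 rows had an unadjusted p under 0.05, but 0 of the members). Even so, 8 of 9 members had a log2 fold change above 0, with a median of 0.48 where that of all rows was 0.17. When rescaled it was 7 of 9, with a median of 0.28 and Casp9 at -0.16. The largest values as deposited were Bcl2l1 at 0.77 (SE 0.37, adjusted p = 0.38) and Bid at 0.76 (SE 0.57, adjusted p = 0.52). Sham left against sham right, with the animal as a block, also called 0 of 9 members and 0 of 13483 rows (576 rows and 0 members at an unadjusted p under 0.05). For 7 of 9 members the range between rats exceeded the largest difference between limbs. Each sham rat was taken at a different sampling time, so differences between rats and between times cannot be told apart here. Over the 3 sham rats, the animal means of Bid covered a range of 3.06 on the log2 scale, while its largest difference between limbs of a rat was 0.41. For Mcl1 these were 1.44 and 0.19, and for Bcl2l1 2.10 and 0.62, and in all of these genes rat 3 was highest and rat 2 lowest. Casp9 did not follow, with a range of 0.30 between rats and up to 0.54 between limbs, nor did Bcl2, with 0.14 and 0.31.

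Summed markers of some other cells differed between treated groups and control, and among the sham rats. The 5 satellite cell markers summed to 155, 89.2 and 339 CPM in the atrophy limbs and 147, 187 and 111 in the repeated atrophy limbs, with 2 of 5 (Myf5 and Sdc4) called higher in both. Their median log2 fold change was 0.25 and 0.20, near the 0.22 and 0.20 of all rows, and 0.01 for sham left against control. The sums thus do not describe the whole list. The 8 fibroblast markers summed to 2073, 1298 and 2450 CPM in the recovery limbs, against 220 to 660 in control, with 7 of 8 called higher. In atrophy limbs 1 to 3 they summed to 684, 248 and 429 CPM, with 0 of 8 called. The 10 macrophage markers summed to 289, 217 and 494 CPM in the recovery limbs, against 71.6 to 246 in control, with 4 of 10 called higher. In atrophy limbs 1 to 3 these markers summed to 366, 110 and 243 CPM, with 0 of 10 called. Limb 2, the one with low Casp9 and Apaf1, thus had the lowest sum of the 3 for both cell types. The 6 proliferation markers summed to 29.9, 5.84 and 5.37 CPM in atrophy limbs 1 to 3, against 3.30 to 8.81 in control. In the recovery limbs they summed to 12.1, 13.5 and 20.0 CPM, and in sham rat 1 to 37.6 and 37.2. Of the 6, 1 was called higher after atrophy and 3 after recovery. In sham rats, the summed level of 7 T cell, B cell and neutrophil markers was 73.0 and 56.5 CPM in the limbs of sham rat 1 and 1.31 to 6.63 in control limbs. Its 8 endothelial markers summed to 573 and 676 CPM, against 230 to 316 in control. Sham rat 3, the one with high Bid, Bcl2l1 and Mcl1, had 9.23 and 6.73 CPM of the former markers and 348 and 444 CPM of the endothelial ones, while its satellite cell markers summed to 294 and 242 CPM, against 28.04 to 104 in control. The highest of these control sums belonged to control limb 9, which also had the highest Bax, Bid and Mcl1 among control limbs. The part of these cells in the results was not tested.

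**Figure D3:**
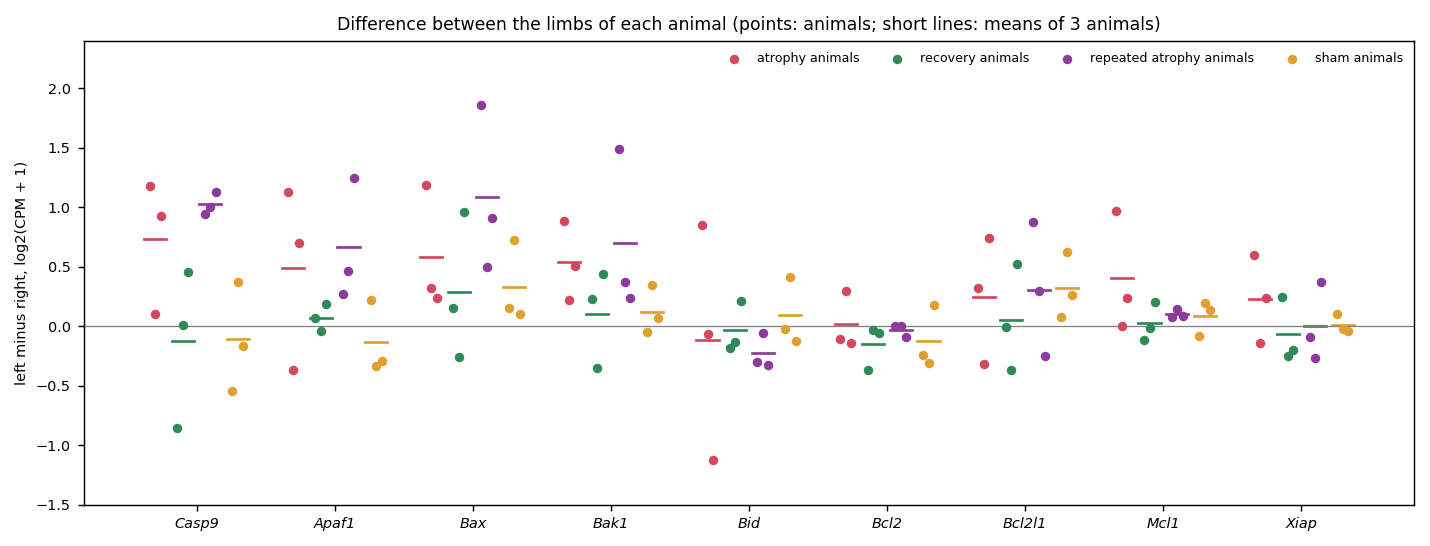
Left minus right difference in log2(CPM + 1) for each member in each of the 12 rats, coloured by the group of the rat, with short lines at the mean of 3 rats. For Casp9 the 3 repeated atrophy rats sit between 0.94 and 1.13, and for Mcl1 the same rats sit between 0.08 and 0.14.

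Left and right limbs of a rat share the animal, so their difference leaves out the spread between rats. Bax and Bak1 were higher in the left limb of 6 of 6 rats under TTX, and so were Casp9, although by 0.10 in atrophy rat 2, and the protector Mcl1, although by 0.0047 in the same rat. These 4 of 9 members stand beside 17.7% of all rows with the left limb higher in each of the 6 rats. Mean differences in the repeated atrophy rats were 1.02 ± 0.10 for Casp9, 1.09 ± 0.70 for Bax, 0.70 ± 0.69 for Bak1 and 0.66 ± 0.52 for Apaf1 (SD, n = 3). Casp9 was thus the most even of these, while Bax and Bak1 owed much to rat 1, at 1.86 and 1.49. In the recovery rats, Casp9 (-0.85, 0.01 and 0.45), Bax (0.15, -0.25 and 0.96) and Bak1 (0.23, -0.35 and 0.44) each had both signs. Bid was lower in the left limb of 3 of 3 repeated atrophy rats (mean -0.23, SD 0.15).

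Ratios of members within a limb do not depend on how that limb was scaled. They are not corrected for length, so only their change is read. The ratio of Bax to Mcl1 was 0.029 to 0.101 in control (median 0.062), 0.063 to 0.074 after atrophy, 0.075 to 0.084 in the recovery limbs and 0.083 to 0.124 after repeated atrophy. Each repeated atrophy limb and each recovery limb lay above at least 8 of the 9 control limbs, and the atrophy limbs lay inside the control range. Bax to Bcl2l1 was 0.28 to 0.67 in control, 0.35 to 0.87 after atrophy, 0.47 to 0.72 in the recovery limbs and 0.61 to 0.67 after repeated atrophy. The highest limb of each treated group lay above all control limbs, and every treated group overlapped with control. Casp9 to Xiap was 3.14 to 20.1 in control (median 5.48), 4.16 to 8.86 after atrophy, 6.08 to 12.3 in the recovery limbs and 13.0 to 19.6 after repeated atrophy, with 1 control limb (6, at 20.1) above all of the others. Xiap rests on few reads, which widens the spread of that ratio. No test was run on the ratios.

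**Figure D4:**
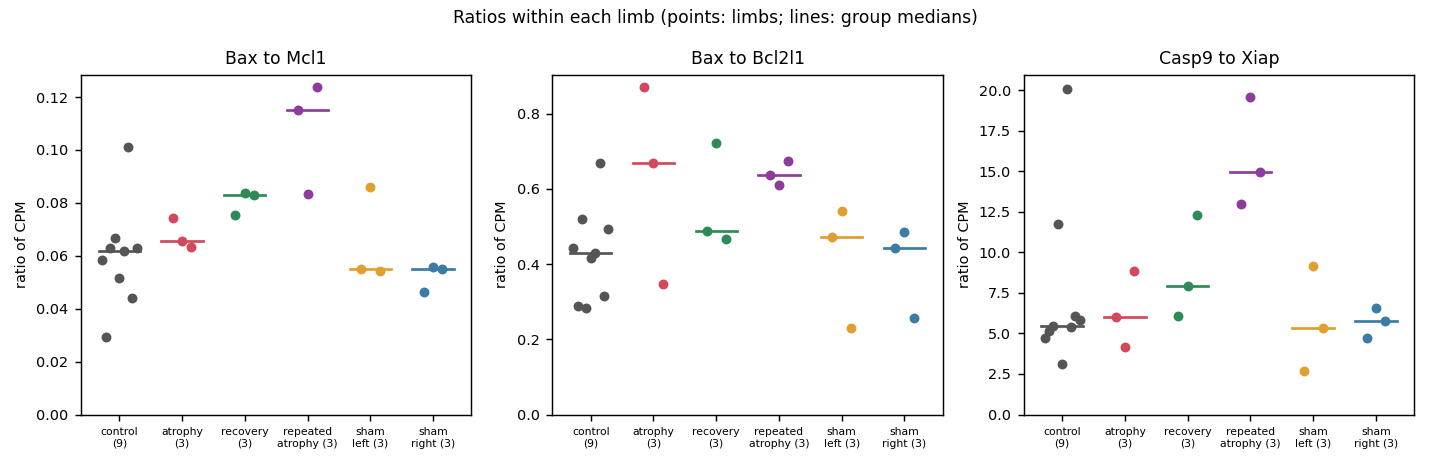
Ratio of CPM within each limb (vertical axes, linear from 0) for Bax to Mcl1, Bax to Bcl2l1 and Casp9 to Xiap, by group, with lines at group medians. Repeated atrophy has the highest median for Bax to Mcl1 (0.115) and Casp9 to Xiap (14.96).

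The other genes of the pathway were taken from lists by role, and 68 of 75 listed genes were in the table. After atrophy 16 of 68 were called, all higher, with a median log2 fold change of 0.28 over the lists and 0.22 over all rows. After recovery 4 were called, beside 7.73% of all rows, with Aifm1, Bok and Faim higher and Aven lower. After repeated atrophy 23 were called, 19 higher and 4 lower (median 0.34, against 0.20 over all rows). On the rescaled values the counts were 6, 7 and 15, beside 9.7%, 12.1% and 25.3% of all rows. Under the block they were 0, 0 and 16, beside 0, 9 and 3806 of the 14031 rows. Leaving out 1 rat gave 0 to 27 calls after atrophy (0 without atrophy rat 1, 8 without atrophy rat 3 or recovery rat 1, 10 without recovery rat 2, 27 without atrophy rat 2). It gave 0 to 8 after recovery (0 without recovery rat 1 or repeated atrophy rat 2, 1 without recovery rat 2, 2 without recovery rat 3 or repeated atrophy rat 3, 8 without atrophy rat 2). For repeated atrophy the lowest counts were 13 without its rat 2 and 15 without its rat 3. Calls over all rows moved as well. After atrophy they were 1 without atrophy rat 1 and 4841 without atrophy rat 2, against 3171 with every rat. After recovery they were 184 without recovery rat 1 and 1478 without atrophy rat 2, against 1084. After repeated atrophy they were 2573 and 3527 without its rat 2 or 3, against 4812. The shares called, 16 and 23 of 68, again sit close to the 22.6% and 34.3% of all rows.

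Of 10 BH3-only and related genes, 2 rose after atrophy and 3 after repeated atrophy, shares near the 20.3% and 28.1% of all rows called higher. Bcl2l11, which encodes the BH3-only trigger BIM, rose by 1.19 (SE 0.27, adjusted p = 0.0091) after atrophy and by 1.13 (SE 0.27, adjusted p = 0.0039) after repeated atrophy, from 6.39 CPM in control to 16.3 and 14.7. Both calls held on the rescaled values (0.85 and 0.78), and only the latter under the block (1.01, against 0.89 with adjusted p = 0.17). Bnip3l, a mitophagy receptor of the outer membrane, rose by 0.82 and 0.96, the former not on the rescaled values (adjusted p = 0.097) or under the block (adjusted p = 0.30). Hrk, a BH3-only gene best known from neurons, rose after repeated atrophy by 0.75 (SE 0.16), from 0.26 to 1.12 CPM. Bad (0.41), Bbc3 (0.42), Bmf (0.44) and Pmaip1 (-0.02) did not pass there.

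The list of cell death repressors had 5 of 11 genes called higher after atrophy and 7 of 11 after repeated atrophy, beside 20.3% and 28.1% of all rows. Of the 5 calls, 1 (Tmbim1) was kept when rescaled and 0 under the block. Of the 7 calls, 2 (Tmbim1 and Bag3) were kept when rescaled and 6 under the block. Tmbim1, a membrane protein of the BAX inhibitor motif family, had 8.50 to 33.9 CPM in control and 85.1, 52.8 and 61.0 after repeated atrophy, a rise of 2.11 (SE 0.32, rescaled 1.75, under the block 2.07). Bag3, a co-chaperone that works with HSP70 in muscle, rose by 1.22 (SE 0.18, rescaled 0.84, under the block 1.19), from 184 to 423 CPM. Nol3, the muscle-enriched repressor ARC, had 258 CPM in control, 452 after atrophy, 126 in the recovery limbs and 383 after repeated atrophy and did not pass against control (adjusted p = 0.084, 0.24 and 0.17). It ranged from 94.98 to 635 CPM among the control limbs alone.

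Further along the route, the IAP ligase Birc6 and the IAP antagonists Htra2 and Diablo rose after both TTX periods, by 0.75, 0.56 and 0.44 after the first and by 0.93, 0.89 and 0.67 after the repeated one. The 3 calls after the first were lost when rescaled and under the block. After repeated atrophy, on the rescaled values, Birc6 (0.56) and Htra2 (0.52) still passed and Diablo did not (0.30, adjusted p = 0.091). Cycs, the gene of cytochrome c, fell by 0.97 (SE 0.31, adjusted p = 0.022), from 845 CPM to 419, and the fall was 1.35 when rescaled and not called under the block (-0.76, adjusted p = 0.087). Dffa, the inhibitor of the apoptotic nuclease, fell by 1.06 (SE 0.25, adjusted p = 0.0038), and Endog, a mitochondrial nuclease, fell by 0.89 (SE 0.25, adjusted p = 0.0094) but not under the block (adjusted p = 0.095). Of the death receptor arm, Ripk3 rose by 1.28 (SE 0.41), with 2.60, 4.40 and 12.37 CPM, and lost its call on the rescaled values (0.98, adjusted p = 0.073). Cflar, a brake on caspase-8, rose by 0.55 after the first TTX period, a call lost when rescaled (0.19, adjusted p = 0.41) and under the block (adjusted p = 0.21). After repeated atrophy it rose by 0.36 as deposited and was at -0.01 when rescaled, and it was not called under the block (adjusted p = 0.15). Of the turnover list, the ligase Marchf5 and the deubiquitinase Usp9x rose in both TTX groups. After the first TTX period both calls were lost when rescaled (Marchf5 0.30, adjusted p = 0.12 and Usp9x 0.20, adjusted p = 0.49) and under the block (adjusted p = 0.26 and 0.46). After repeated atrophy Marchf5 alone of the pair passed when rescaled (0.35, adjusted p = 0.040) and under the block (0.75, against 0.61 with adjusted p = 0.10 for Usp9x).

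**Figure D5:**
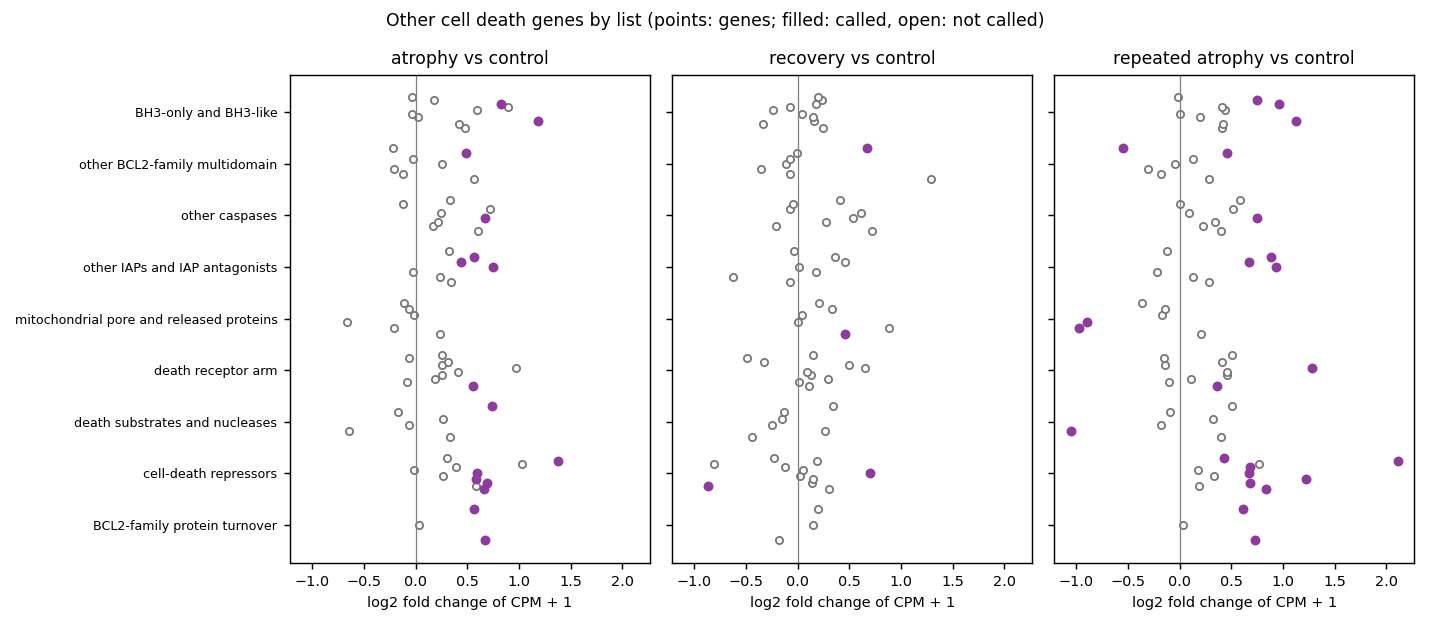
Log2 fold change of CPM + 1 against control (horizontal axis) of 68 other cell death genes in 9 lists, with filled points for genes called. After repeated atrophy the points run from -1.06 (Dffa) to 2.11 (Tmbim1), and 4 of the 23 filled points are below 0.

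Over the 24 limbs, Pearson correlations of log2(CPM + 1) between members ran from -0.29 (Bcl2 and Xiap) to 0.84 (Bcl2l1 and Mcl1). Bax and Bak1 had r = 0.83 and Bid and Mcl1 r = 0.82, while Casp9 had r = 0.53 with Bax and 0.15 with Mcl1. The points share rats, groups and scaling, so these values describe the limbs and were not tested. Among 10619 rows, the nearest in pattern to Casp9 were Ncs1 (0.91), Mfge8 and Agpat3. Those nearest to Bax were Llgl1 (0.93), Ppfibp2 and Nup93, to Bak1 Prelid1 (0.89), Natd1 and Arrdc1, and to Apaf1 Tmem50a (0.86), Cdk4 and Serinc5. For Mcl1 they were Gabarapl1 (0.95), Nob1 and Pnrc1, for Bcl2l1 Plcd3 (0.93), Pprc1 and Tnfrsf1a, and for Bid Hnrnpul2 (0.92), Spsb1 and Mcrip1. The low members reached less, Xiap with Rragd at 0.77 and Bcl2 with Mapk9 at 0.74.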

How the data were processed

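RNA-seq of 24 TA limbs was used from 1 table of normalized values. Per the labels and the paper's methods, the authors made directional libraries from polyadenylated RNA, filtered contaminants with Bowtie2 2.2.5, aligned reads to rn7 with STAR in Partek Flow and name a DESeq2 normalization, and the counting step is not given in the sources used here. The deposited values are CPM, since each column sums to 1000000. The design had assumed that the authors scaled by the median of ratios, and its test on the log scale was kept for the deposited CPM. Of 27 value columns, 3 match no sample record and were not used. Low values were whole multiples of 1 read (tolerance 0.02) for 82.5% to 85.2%, so depth was inferred but reads were not recovered and no count test was run.

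Of 14271 rows, 28 duplicates were dropped. Rows above 0 in at least 3 limbs were fitted on log2(CPM + 1), a scale that understates changes of low genes, with limma 3.58.1 (R 4.3.3), an intensity trend and no block. The 18 limbs of the TTX rats were in 1 fit, with separate fits for sham left against control and, with the animal as a fixed block, sham left against right. The fit was also run on simulated counts drawn independently for each limb. The simulation held no effect shared by the limbs of a rat and no shift over all rows, so it cannot speak to either. The labels give both limbs of each rat, which pairs them. Over 10619 rows, the left and right limb, each centred on its group, had a mean r of 0.27 (0.62 to 0.84 in sham rats, -0.32 to 0.53 in TTX rats). Floors for a count of 0 cover counting error only, and the fitted intervals cover the spread between limbs. All 9 members are named, and of the pathway lists the genes called against control, up to 12 per comparison by size with a group mean of at least 1 CPM, plus BH3-only genes, Nol3 and Cycs. Not every such gene is printed, and single genes of the other caspases are not reported here. Members and lists were chosen with earlier results of these data known. Python 3.11.15, pandas 2.3.3 and matplotlib 3.10.9 were used, and promoter sequences are RefSeq's (GRCr8).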

Additional observations from a re-analysis of the deposited data

Results flagged for a closer look

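Among the 9 control limbs, 2 of 12 quantities examined (9 members and 3 ratios) had 1 limb standing apart by Dixon's 95% criterion, which chance alone meets in about 1 of 20 groups. Bid was 16.4 CPM in control limb 9, with the next limb at 4.67 CPM. Bax was 15.5 CPM in the same limb, with the next at 9.87 CPM, a gap of 0.499 of the range against a critical value of 0.493. The limb is the right one of atrophy rat 3.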

How the results depend on the processing

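The number of members called changed with several settings. After atrophy (2 as reported) it was 0 on values rescaled by a trimmed mean or by the median of ratios, 0 with the replicate block (animal as a fixed effect), 0 with both, and 1 with all 12 right limbs as control. It was 3 with a mean of at least 10 CPM (Mcl1 gained, adjusted p = 0.038), a filter that leaves 4 members to test and removes Casp9 and Xiap among others, and 3 with rows summed per symbol (Xiap gained, adjusted p = 0.047). After repeated atrophy (3) it was 1 with either rescaling, 2 with the replicate block or with all 12 right limbs, 2 of the 4 members with a mean of at least 10 CPM, and 0 with rescaling and block together. Recovery against atrophy (2) gave 1 with a pseudocount of 0.1, 1 of 4 with a mean of at least 10 CPM, and 0 with either rescaling, the block or both. Repeated atrophy against recovery (1) gave 0 with either rescaling, the block or both. Leaving out each rat in turn gave 0 to 6 calls after atrophy (6 without atrophy rat 2, 0 without rat 1 or 3), 1 to 4 after repeated atrophy (1 without its rat 2 or 3), 0 to 4 for recovery against atrophy (0 without recovery rat 1 or 2, 1 without atrophy rat 1 or recovery rat 3, 4 without atrophy rat 2) and 0 to 1 for repeated atrophy against recovery. The counts for recovery against control, repeated against first atrophy and both sham comparisons stayed at 0. Rescaling together with the block was chosen after the data were seen. For rows called over all genes after atrophy, 3171 became 1361 when rescaled and 0 under the block. Without atrophy rat 1, 2 or 3 they were 1, 4841 and 1830. The 6 members called without atrophy rat 2 thus stand beside a rise in calls over all rows. After repeated atrophy, 4812 became 3548 when rescaled, 3806 under the block, 4242 with all 12 right limbs and 3662 with a mean of at least 10 CPM. Without repeated atrophy rat 2 or 3 they were 2573 and 3527. The count test planned for recovered reads was not run, since whole reads were not recovered. Causes were not tested.

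Signs turned only for values that were not called, with the exception of Cflar after repeated atrophy (-0.010 and -0.013 with the 2 rescalings). Against control, with the replicate block, these were, after atrophy, Bid (-0.11) and Bcl2 (0.018), after recovery, Casp9 (-0.13), Apaf1 (0.072), Bcl2l1 (0.052), Mcl1 (0.027) and Nol3 (0.21), and after repeated atrophy, Bcl2 (-0.029) and Xiap (0.0063). With rescaling and block they were Bid (-0.33), Bcl2 (0.015) and Bcl2l1 (-0.0043) after atrophy, Casp9 (-0.24), Bak1 (-0.018) and Nol3 (0.079) after recovery, and Bcl2 (-0.081), Bcl2l1 (-0.056) and Mcl1 (-0.27) after repeated atrophy. Either rescaling turned Bcl2 (-0.031 in both) and Mcl1 (-0.074 and -0.076) after repeated atrophy. Among the other comparisons, the trimmed mean turned Casp9 in sham left against control (-0.16) and Bid (-0.12) and Xiap (-0.12) in repeated atrophy against recovery. The replicate block turned Bid in recovery against atrophy (0.079) and in repeated atrophy against recovery (-0.19), and Apaf1 (0.17), Bak1 (0.16) and Bcl2 (-0.047) in repeated against first atrophy. With 12 right limbs Bax after recovery was -0.052, and leaving out 1 rat gave Bax after recovery (-0.17 to 0.14), Casp9 after recovery (-0.10 to 0.33), Bcl2l1 after atrophy (-0.024 to 0.69) and Bcl2 after repeated atrophy (-0.020 to 0.097).

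Depth limits Bcl2 most, with 9 of 24 limbs at 0, and Xiap next, with a median of 22.5 inferred reads. With 3 limbs a group, the intervals of Bcl2l1 and Bid span more than 1.2 on the log2 scale, so that an absent call there does not show an absent change.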
